A study of Mus musculus with 12 samples.

Results

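Cardiolipin, the dimeric phospholipid of the inner mitochondrial membrane, is made and remodelled by a short chain of enzymes, and the RNA of 9 genes of this chain was followed in mouse subcutaneous white adipose tissue (scWAT). The 9 genes, Prelid1, Tamm41, Cds1, Cds2, Pgs1, Ptpmt1, Crls1, Taz and Lclat1, were chosen by their place in the pathway, with earlier results of these data known. The authors list Crls1 among the genes they define as direct targets of JMJD1A, the protein mutated in HY/HY mice. That list takes genes raised by cold in wild-type fat and reduced in HY/HY fat at 8°C, from these same data. It also asks for JMJD1A binding and an active histone mark specific to cold beige fat, from other data. Its calls below are thus not independent of that list. Taz is tafazzin on chromosome X, not the transcriptional coactivator Wwtr1 that shares the name. All 9 were found among the 55401 genes of the deposited count tables, and all 9 were among the 16540 genes with enough counts to be tested. In wild-type mice 4 of the 9 rose in the cold, led by Crls1, the cardiolipin synthase, where 10.3% of all genes tested rose. In HY/HY mice none passed the test, and as 0.26% of all genes did, this count says nothing particular to the 9. The difference in cold response between genotypes was called for Ptpmt1, the phosphatase that supplies phosphatidylglycerol, a call that was lost when any of 9 of the 12 libraries was left out. For Crls1 that difference was not called, except in 3 of 19 alternatives. At 8°C Crls1 was the member called lower in HY/HY than in wild-type fat, at 69.8 ± 1.48 against 132 ± 4.99 CPM (SD, n = 3 mice each), CPM being counts scaled to the size of the library.

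The libraries, each taken as 1 mouse, came from 12 female mice, 3 in each of 4 groups. These were Jmjd1a +/+ (wild type) and Jmjd1a HY/HY, each kept at thermoneutrality (30°C) or in the cold (8°C) for 1 week. Every mouse was 16 weeks old at the start, was of C57BL/6J background and had first been acclimated to 30°C for 1 week. JMJD1A (gene symbol Kdm3a) removes methyl groups from lysine 9 of histone H3. The HY allele, made by CRISPR/Cas9, replaces a histidine of its catalytic domain with tyrosine and is present in all cells of the animal, so that fat and every other tissue carry it. Because the allele is a point mutation, gene counts do not separate it from wild type, and Kdm3a stood between 35.7 and 61.7 CPM in the 12 libraries with no call between genotypes (edgeR's quasi-likelihood test, adjusted p = 0.753 at 30°C and 0.602 at 8°C).

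Cardiolipin synthesis starts when phosphatidic acid is carried by PRELID1 from the outer to the inner membrane. There TAMM41 turns it into CDP-diacylglycerol, the product that CDS1 and CDS2 make in the endoplasmic reticulum, and PGS1, PTPMT1 and CRLS1 then form phosphatidylglycerol phosphate, phosphatidylglycerol and cardiolipin in turn. Tafazzin and LCLAT1 exchange the acyl chains of the new lipid, and loss of tafazzin is known as the cause of Barth syndrome. In brown and beige fat, where cold brings up mitochondria that burn fuel for heat, cardiolipin is known to be needed for respiration and for uncoupling through UCP1.

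The libraries held between 13592629 and 26352081 counts in genes, and each of the 6 libraries from 8°C (up to 17955584) was smaller than each of the 6 from 30°C (from 18305586), so that counting precision was lower in the cold groups. White adipocyte markers were abundant in every library, with a summed level from 12872 to 39456 CPM over 6 of 6 markers detected. The 7 beige markers summed to between 65.4 and 242 CPM in the 6 libraries from 30°C, to between 8348 and 9266 CPM in the wild-type cold group and to between 533 and 1680 CPM in the HY/HY cold group. Ucp1 itself, the uncoupling protein of beige fat, averaged 2.02 ± 2.23, 5484 ± 517, 1.23 ± 0.98 and 575 ± 347 CPM in wild type at 30°C, wild type at 8°C, HY/HY at 30°C and HY/HY at 8°C. Among wild-type mice at 30°C, replicate 2 carried skeletal muscle RNA, with a sum of 961 CPM over 5 markers where no other library passed 21 CPM. The 6 mammary epithelium markers summed to between 2047 and 3682 CPM in wild type at 30°C, above the 527 to 1466 CPM of HY/HY at 30°C, the 1371 to 1513 CPM of wild type at 8°C and the 879 to 1295 CPM of HY/HY at 8°C. In bulk tissue, fewer cells of a type and less RNA per cell cannot be told apart, and this holds for each level given here.

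The start regions of 3 members are shown because they stand for the contrasts that follow: Crls1, with the largest cold response, and the CDP-diacylglycerol synthases Cds1 and Cds2, which catalyse the same reaction and had opposite signs in the cold. Each run is the 250 bases before a RefSeq transcript start on the gene's own strand (GRCm38.p6, the assembly of mm10), at chr2:132846416-132846665 on the plus strand for Crls1, chr5:101764880-101765129 on the plus strand for Cds1 and chr2:132262898-132263147 on the plus strand for Cds2, with capitals marking a match to a searched motif.
Crls1: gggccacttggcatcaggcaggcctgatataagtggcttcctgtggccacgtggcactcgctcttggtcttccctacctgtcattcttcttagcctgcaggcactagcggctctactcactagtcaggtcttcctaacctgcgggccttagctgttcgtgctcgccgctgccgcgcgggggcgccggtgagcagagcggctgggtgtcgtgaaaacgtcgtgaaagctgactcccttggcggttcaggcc
Cds1: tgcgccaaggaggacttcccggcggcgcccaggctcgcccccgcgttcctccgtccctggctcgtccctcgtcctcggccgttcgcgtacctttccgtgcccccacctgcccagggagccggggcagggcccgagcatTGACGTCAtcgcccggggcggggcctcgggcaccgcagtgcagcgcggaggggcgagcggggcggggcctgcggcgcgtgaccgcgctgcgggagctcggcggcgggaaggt
Cds2: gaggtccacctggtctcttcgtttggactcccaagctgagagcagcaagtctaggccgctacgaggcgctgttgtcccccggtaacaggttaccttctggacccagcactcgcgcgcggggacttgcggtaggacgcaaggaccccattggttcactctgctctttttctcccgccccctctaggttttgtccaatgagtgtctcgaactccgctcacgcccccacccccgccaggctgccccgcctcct
Windows were found for 8 of the 9 genes (10 windows, with 2 starts each for Crls1 and Cds2), and none for Tamm41. Searched on both strands were TNAAGGTCA (the ERR element), CCGGAAGT (a GABPA site), GCGCATGC (an NRF1 site) and TGACGTCA (the cAMP response element), which are bound by factors known from mitochondrial and cold-induced transcription. The cAMP response element, a palindrome that reads alike on both strands, lies in the Cds1 window, beginning 112 bases before the start, and is held by 1.55% of the 32851 windows of this length. The GABPA letters lie in the Prelid1 window (chr13:55321805-55322054, plus strand), 67 bases before the start, and in 2.88% of all windows. The other 8 windows, Crls1 and Cds2 among them, held none of the 4 motifs, which says only that these letters are not in these bases. The Cds1 window was 77.6% G and C, against 62.4% and 50.4% in the Cds2 windows and 61.6% and 42.4% in those of Crls1.

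Within wild-type fat at 30°C the 9 RNAs spanned a wide range when counts were set per kilobase of exon, using exon lengths from an older annotation of the same genes, so that lengths and hence these levels are approximate. Prelid1 led with 86 ± 7.11 CPM per kilobase, ahead of Crls1 at 24.7 ± 3.87. Ptpmt1 at 17.8 ± 1.85 and Taz at 16.5 ± 1.2 CPM per kilobase overlapped between libraries and could not be ordered. Below them came Cds2 (11.3 ± 1.5), Pgs1 (7.78 ± 1.25), Cds1 (3.83 ± 0.344), Lclat1 (2.93 ± 0.0711) and Tamm41 (2.2 ± 0.258 CPM per kilobase). In wild type at 8°C, Prelid1 was at 103 ± 4.56, Crls1 at 63.3 ± 2.39 and Ptpmt1 at 38.2 ± 1.26 CPM per kilobase, and Taz, at 13.7 ± 0.857, no longer overlapped Ptpmt1. Pgs1 (9.73 ± 1.06) and Cds2 (9.37 ± 0.526 CPM per kilobase) overlapped there, while Cds1 (6.16 ± 0.296), Lclat1 (5.06 ± 0.429) and Tamm41 (2.76 ± 0.511) kept to the low end.

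**Figure D1:**
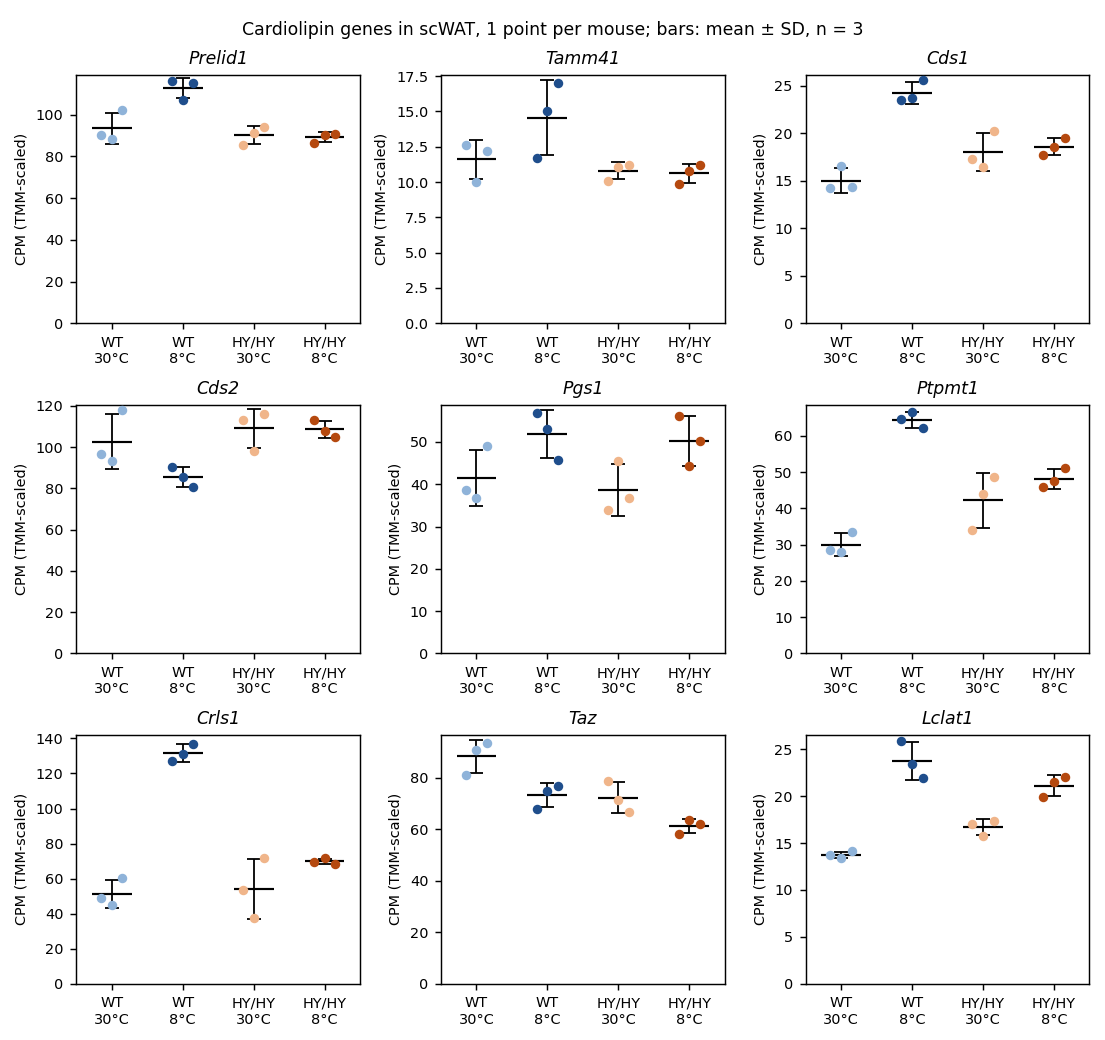
Level of each of the 9 genes (y axis, CPM scaled with TMM factors, from 0) in each of the 12 libraries (points) of the 4 groups on the x axis, with the mean (line) and SD (bars, n = 3 mice). Crls1, Ptpmt1, Cds1 and Prelid1 were highest in wild type at 8°C without overlap, Crls1 with 127 to 137 CPM against at most 71.7 CPM in any other library. Lclat1, Tamm41 and Pgs1 had their highest mean there but overlapped another group.

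To see how the pathway responded to cold in wild-type fat, the groups at 8°C and 30°C were compared in a fit over all genes. In this and the other comparisons of groups, a gene was called when its Benjamini-Hochberg adjusted p in edgeR's quasi-likelihood test was below 0.05 and its fold change above 1.5 or below 0.67. Called higher were 4 of the 9 genes, where 10.3% of all genes tested were called higher, and none was called lower, where 6.93% of all genes were. The 3 cold libraries lay all above the 3 from 30°C for 5 members (20.7% of all genes) and all below for 2 (22.7% of all genes). The median log2 fold change was 0.33 over the 9 genes and -0.07 over all genes tested.

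Of the first steps of the pathway, neither the delivery of phosphatidic acid nor its activation in mitochondria was called. Prelid1, the carrier, was at 90.2, 88.1 and 102 CPM at 30°C and at 116, 107 and 115 CPM at 8°C. These groups did not overlap, but the difference on the log2 scale was 0.27 (SE 0.09) and the adjusted p was 0.0555. Tamm41, the CDP-diacylglycerol synthase of the mitochondrion, was at 12.6, 10 and 12.2 CPM at 30°C and 11.7, 15 and 17 CPM at 8°C. Its groups overlapped, with a log2 fold change of 0.33 (SE 0.15) and an adjusted p of 0.127.

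The paralogous synthases of the endoplasmic reticulum had opposite signs. Cds1 stood at 14.2, 16.6 and 14.3 CPM at 30°C and at 23.5, 23.7 and 25.6 CPM at 8°C, with every cold library above every warm one. It rose 1.61-fold (log2 0.69, SE 0.11, adjusted p = 0.00144). Cds2 stood at 96.8, 93.2 and 118 CPM at 30°C and at 90.3, 85.5 and 80.7 CPM at 8°C, every cold library being below every warm one. Its log2 fold change was -0.27 (SE 0.11), which did not pass the test (adjusted p = 0.107).

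Of the mitochondrial steps that follow, the first was not called and the next were. Pgs1, which joins CDP-diacylglycerol to glycerol 3-phosphate, was at 38.7, 36.8 and 49.1 CPM at 30°C and at 56.9, 53 and 45.7 CPM at 8°C. The groups overlapped, and the log2 fold change of 0.32 (SE 0.15) had an adjusted p of 0.136. Ptpmt1, the phosphatase that releases phosphatidylglycerol, was at 28.5, 27.9 and 33.6 CPM at 30°C and at 64.5, 66.5 and 62.2 CPM at 8°C. It rose 2.15-fold (log2 1.10, SE 0.13, adjusted p = 0.000141), with cold values tightly grouped and far above the warm ones. Crls1, which condenses phosphatidylglycerol with CDP-diacylglycerol to cardiolipin, was at 48.9, 44.8 and 60.4 CPM at 30°C and at 127, 131 and 137 CPM at 8°C. Its rise of 2.57-fold (log2 1.36, SE 0.19, adjusted p = 0.000499) was the largest of the 9 genes.

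The remodelling enzymes differed from each other. Taz, the transacylase that loads the mature acyl chains, was at 81.2, 90.8 and 93.4 CPM at 30°C and at 68.1, 75.1 and 76.9 CPM at 8°C. All cold values were below all warm ones, with a log2 fold change of -0.27 (SE 0.10) and an adjusted p of 0.0625. Lclat1, an acyltransferase of the endoplasmic reticulum that acts on lysocardiolipin, was at 13.7, 13.4 and 14.1 CPM at 30°C and at 25.9, 23.4 and 21.9 CPM at 8°C. It rose 1.73-fold (log2 0.79, SE 0.10, adjusted p = 0.000272), and its groups were well apart.

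Without the library that held muscle RNA, the log2 fold changes were 1.27 for Crls1, 1.05 for Ptpmt1, 0.76 for Cds1 and 0.77 for Lclat1, and all 4 were still called. The scaling mattered. Scaled to library totals in place of TMM factors, the median of all genes moved from -0.07 to -0.41, and the calls became 2 higher (Crls1 and Ptpmt1) and 2 lower (Cds2, log2 -0.59, and Taz, log2 -0.61). Cds1 (log2 0.34) and Lclat1 (log2 0.45) then fell short of the fold limit, and Pgs1, Prelid1 and Tamm41 lay between -0.07 and 0.

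In HY/HY mice the same exposure gave no call among the 9 genes, where 0.26% of all genes tested were called in either direction. The median log2 fold change over the members was 0.05, against -0.01 over all genes. Lclat1 had all cold libraries above all warm ones (9.33% of all genes did), at 19.9, 21.5 and 22 CPM against 17, 15.7 and 17.3 CPM. Its log2 fold change was 0.34 (SE 0.10), with an adjusted p of 0.169. Taz had all cold libraries below (9% of all genes did), at 58.3, 63.5 and 62.1 CPM against 78.7, 71.5 and 66.9 CPM, with a log2 fold change of -0.24 (SE 0.10, adjusted p = 0.29).

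Crls1 in HY/HY mice was spread widely at 30°C, at 53.6, 37.4 and 71.7 CPM, and narrowly at 8°C, at 69.3, 71.5 and 68.6 CPM. The groups overlapped because of the warm replicate 3, and the log2 fold change was 0.37 (95% interval -0.05 to 0.78, adjusted p = 0.396). Without that library Crls1 passed the test at a log2 fold change of 0.62 (adjusted p = 0.0466), still under the wild-type value. Ptpmt1 was at 33.9, 44 and 48.7 CPM at 30°C and 45.8, 47.6 and 51.2 CPM at 8°C, with a log2 fold change of 0.19 (-0.09 to 0.47). Cds1 was at 17.3, 16.5 and 20.3 CPM and then at 17.7, 18.6 and 19.5 CPM, so that the warm and cold ranges covered each other (log2 0.05, -0.20 to 0.29).

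The remaining members of the synthesis branch also overlapped between temperatures in HY/HY mice. Pgs1 was at 33.8, 45.6 and 36.7 CPM at 30°C and at 56.1, 44.3 and 50.2 CPM at 8°C, a log2 fold change of 0.37 (0.05 to 0.70, adjusted p = 0.282) close to the wild-type value of 0.32. Prelid1 (85.5 to 94.1 against 86.5 to 90.8 CPM), Tamm41 (10.1 to 11.2 against 9.84 to 11.2 CPM) and Cds2 (98.1 to 116 against 105 to 113 CPM) had log2 fold changes between -0.03 and -0.01.

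**Figure D2:**
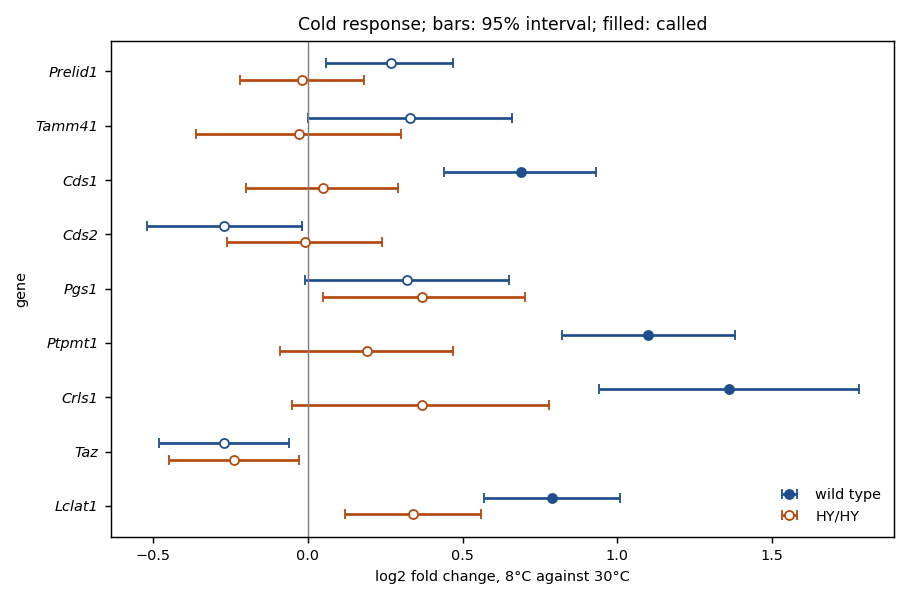
Log2 fold change of 8°C against 30°C (x axis) for each gene (y axis) in wild-type (blue) and HY/HY (orange) mice, with 95% intervals from the edgeR fit and filled points where a gene was called. Filled points are Crls1, Ptpmt1, Lclat1 and Cds1 in wild type, from 0.69 to 1.36, and no gene in HY/HY mice.

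Whether the cold response differed between genotypes was tested with an interaction term over all 12 libraries, called at an adjusted p below 0.05. Called lower was 1 of the 9 genes, where 2.1% of all genes tested were, and called higher was none, where 0.169% of all genes were. For Ptpmt1 the cold response was smaller in HY/HY mice by 0.91 on the log2 scale (log2 difference -0.91, SE 0.18, adjusted p = 0.0279). This call was lost when any of 9 of the 12 libraries was left out, the highest adjusted p being 0.0871 without HY/HY at 8°C replicate 1, while the difference itself stayed between -1.05 and -0.80. The libraries whose removal kept the call were wild type at 30°C replicate 3 and HY/HY at 30°C replicates 1 and 3.

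Crls1 had a difference of like size, -0.99 (SE 0.27, 95% interval -1.58 to -0.41), with a larger error and an adjusted p of 0.0842. It was called in 3 of 19 alternatives, among them DESeq2 (adjusted p = 0.0166) and the fit without HY/HY at 30°C replicate 2 (log2 difference -1.20, adjusted p = 0.0237). For Cds1 the difference was -0.64 (-0.99 to -0.29, adjusted p = 0.0648) and for Lclat1 -0.45 (-0.76 to -0.14, adjusted p = 0.152). The 4 genes called in wild type all had negative differences, of which that of Ptpmt1 passed the test with all libraries. Their shared sign is favoured by the choice of genes, since the difference subtracts the wild-type rise by which they were picked. Over all genes tested, too, more were called lower (2.1%) than higher (0.169%). Pgs1 (0.05, interval -0.41 to 0.52) and Taz (0.03, interval -0.27 to 0.33) had differences near 0, with intervals that leave room for effects in either direction.

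The genotypes were then compared at each temperature, the wild-type groups serving in both the cold and the genotype comparisons. At 8°C, 1 of the 9 genes was called lower (4.41% of all genes tested) and none higher (1.54% of all genes). The HY/HY libraries lay all below the wild-type ones for 6 members (19% of all genes) and all above for 1 (16.4% of all genes). The median log2 difference was -0.34 over the members and 0.01 over all genes.

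Crls1, at 68.6 to 71.5 CPM in HY/HY and 127 to 137 CPM in wild-type mice at 8°C, was lower by 0.92 on the log2 scale (log2 -0.92, SE 0.19, adjusted p = 0.0144). No HY/HY value came near a wild-type one. The call was lost without wild type at 8°C replicate 3 (adjusted p = 0.0601), HY/HY at 8°C replicate 1 (0.0639) or HY/HY at 8°C replicate 3 (0.0671), with the log2 difference between -0.94 and -0.88 over all libraries left out in turn. Prelid1, at 86.5 to 90.8 against 107 to 116 CPM, had an adjusted p of 0.0487 but a fold of 0.792, short of the fold limit, and scaled to library totals its adjusted p was 0.236.

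Ptpmt1 (45.8 to 51.2 against 62.2 to 66.5 CPM, log2 -0.42), Cds1 (17.7 to 19.5 against 23.5 to 25.6 CPM, log2 -0.39) and Tamm41 (9.84 to 11.2 against 11.7 to 17 CPM, log2 -0.46) were all below wild type without overlap. Their adjusted p values were 0.0714, 0.0635 and 0.0956, so none passed the test. Taz was likewise below, at 58.3 to 63.5 against 68.1 to 76.9 CPM (log2 -0.26, adjusted p = 0.139). Cds2 was the single member with all HY/HY libraries above, at 105 to 113 against 80.7 to 90.3 CPM (log2 0.34, SE 0.11, adjusted p = 0.0928). Lclat1 (log2 -0.17, interval -0.39 to 0.05) and Pgs1 (log2 -0.05, interval -0.38 to 0.28) overlapped between genotypes.

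Other cells' RNA also differed between these groups. The 5 macrophage markers summed to between 116 and 168 CPM in HY/HY and to between 66.5 and 75.3 CPM in wild type at 8°C, with 3 of the 5 called higher, and the summed beige markers were at most 1680 CPM against at least 8348 CPM. What part these shifts have in the levels of the cardiolipin genes was not tested.

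At 30°C none of the 9 genes was called, where 1.12% of all genes tested were called in either direction. Ptpmt1 and Lclat1 had all HY/HY libraries above wild type (7.66% of all genes) and Taz all below (10.6% of all genes). Ptpmt1 was at 33.9 to 48.7 against 27.9 to 33.6 CPM, a log2 difference of 0.49 (SE 0.13) with an adjusted p of 0.0802. That difference became a call without HY/HY at 30°C replicate 1, at 0.63 (adjusted p = 0.0192). Lclat1 was at 15.7 to 17.3 against 13.4 to 14.1 CPM (log2 0.28, adjusted p = 0.172). Taz was at 66.9 to 78.7 against 81.2 to 93.4 CPM (log2 -0.29, SE 0.10, adjusted p = 0.148), the same sign and nearly the same size as at 8°C. The summed mammary epithelium markers were higher in these wild-type libraries as given above, but the markers did not all differ. Krt8 (976 ± 226 against 336 ± 137 CPM in HY/HY) and Krt18 (1160 ± 249 against 489 ± 217 CPM) did not overlap between genotypes, and only Krt8 was called (log2 -1.54, adjusted p = 0.0499). Krt14, Krt5, Epcam and Csn3 overlapped, with Csn3 at 60.7 ± 10 against 54.6 ± 30.3 CPM. Their part in the difference of Taz was not tested. Crls1 did not differ beyond its spread, with a log2 difference of 0.08 (interval -0.33 to 0.49) and means of 54.2 ± 17.2 CPM in HY/HY and 51.4 ± 8.06 CPM in wild-type mice (SD, n = 3).

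**Figure D3:**
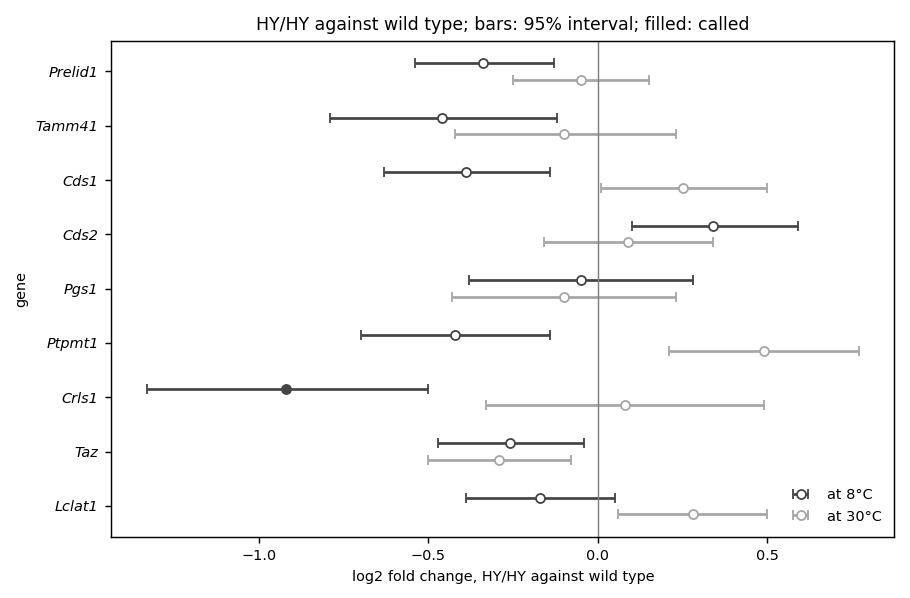
Log2 difference of HY/HY against wild type (x axis) for each gene (y axis) at 8°C (dark) and at 30°C (light), with 95% intervals from the edgeR fit and filled points where a gene was called. The single filled point is Crls1 at 8°C, at -0.92.

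Shifts in the makeup of the pathway between groups can be read without any scaling between libraries from the ratio of 2 genes' counts in the same library. Ratios of 6 pairs were formed after the counts had been seen, so they are given as a description. The ratio of Crls1 to Taz was 0.602, 0.494 and 0.647 in wild type at 30°C and 1.87, 1.74 and 1.78 in wild type at 8°C. In HY/HY mice it was 0.681, 0.524 and 1.07 at 30°C and 1.19, 1.12 and 1.1 at 8°C. The ratio was thus highest in the 3 wild-type libraries from the cold and lower in HY/HY mice, where 1 warm library came close to the cold ones. Counts are not set to exon length, so a ratio above or below 1 does not say which RNA was more abundant. Per kilobase of exon, Crls1 was above Taz in wild type at 30°C too (24.7 ± 3.87 against 16.5 ± 1.2 CPM per kilobase).

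Cds1 counts per Cds2 count were 0.147, 0.178 and 0.121 in wild type at 30°C and 0.26, 0.277 and 0.317 at 8°C, and lay between 0.153 and 0.186 in all 6 HY/HY libraries. The cold wild-type mice stood alone in this ratio. Lclat1 counts per Taz count went from 0.156 ± 0.0112 to 0.325 ± 0.0489 in wild type and from 0.232 ± 0.0236 to 0.345 ± 0.00849 in HY/HY mice (SD, n = 3). This ratio was higher in the cold in both genotypes without overlap. With 3 mice against 3, the smallest two-sided exact permutation p is 0.1, and it was reached in both genotypes for Crls1 to Taz and for Lclat1 to Taz and in wild type alone for Cds1 to Cds2 (adjusted p = 0.16 over the 24 tests of 6 pairs), so that no ratio could pass a limit of 0.05.

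**Figure D4:**
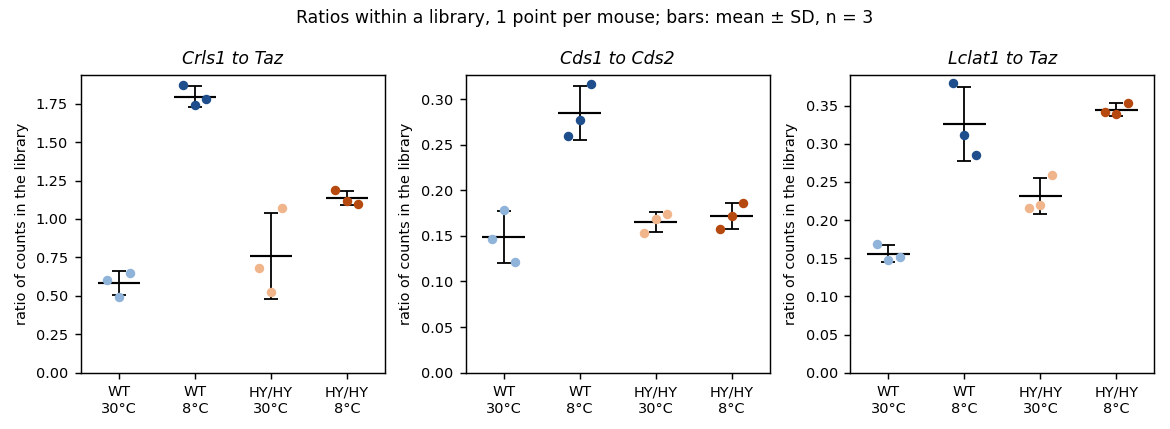
Ratio of the counts of 2 genes within a library (y axis, from 0) for Crls1 to Taz, Cds1 to Cds2 and Lclat1 to Taz, by group on the x axis, with points for libraries, a line for the mean and bars for the SD (n = 3 mice). Crls1 to Taz was 1.74 to 1.87 in wild type at 8°C and at most 1.19 elsewhere.

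Across the 12 libraries, which share the 4 group differences, log2 levels of Ptpmt1 and Lclat1 ran together (Pearson r = 0.92), as did those of Ptpmt1 and Cds1 (0.90) and of Crls1 and Cds1 (0.88). Taz and Cds2 stood outside this group, with r of -0.24 and -0.51 against Crls1 and -0.17 against each other. Of 14611 genes compared, those most like Crls1 in this measure were Myeov2 (r = 0.991), Ndufb4 (0.981), Ei24 (0.979), Slc4a4 (0.978) and Hadh (0.977). Those most like Taz were Rce1 (0.979), Ccdc45 (0.964), Clasrp (0.963), Dnttip1 (0.962) and Rbm17 (0.959). The points of each r are the same 12 libraries, and the values are descriptions of them.

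Genes upstream of, beside and downstream of the 9 were taken from lists by role, and their counts stand beside the shares of all genes called, 10.3% higher and 6.93% lower in wild-type cold and 1.54% higher and 4.41% lower in HY/HY mice at 8°C. Of the 8 tested genes of phosphatidic acid synthesis (a 9th, Gpat2, had too few counts), 3 rose in wild-type cold and none fell. These were the acyltransferases Agpat3 (log2 1.53, adjusted p = 6.47e-05) and Agpat2 (2.03, adjusted p = 0.00215) and the mitochondrial glycerol phosphate acyltransferase Gpam (0.65, adjusted p = 0.0348), the last of which lost its call without wild type at 30°C replicate 2 (0.51, adjusted p = 0.129). At 8°C, HY/HY mice had less Agpat3 (log2 -0.74, adjusted p = 0.0146) and more Gpat3 (1.19, adjusted p = 0.0338), the latter at 186 ± 38.9 against 81.5 ± 19.9 CPM. Gpat3, a glycerol phosphate acyltransferase of the endoplasmic reticulum, was thus the gene of these lists called higher in HY/HY mice with all libraries. Without HY/HY at 30°C replicate 3, Gpat2 was tested and called higher at 8°C (log2 5.42, adjusted p = 0.0348) and 30°C (5.28, adjusted p = 0.0363). Its counts were very low, at 0 in wild type and 2 to 7 in HY/HY mice at 8°C.

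Of 7 carriers and binding proteins that move lipids between the mitochondrial membranes, 1 rose in wild-type cold, a count near the 10.3% of all genes that rose. This was Prelid3b, a relative of Prelid1 that carries phosphatidylserine, and it averaged 56.7 ± 4.07 CPM in the warm and 171 ± 4.5 CPM in the cold (log2 1.59, adjusted p = 8.41e-05). In HY/HY mice at 8°C it was at 88 ± 6.59 CPM (log2 -0.96 against wild type, adjusted p = 0.00678). Prelid3b, like Crls1, is on the authors' list defined partly from these data, so its calls are not independent of that list. Triap1, the partner of the PRELI family, stayed between 23.1 and 30.5 CPM in all 12 libraries. Plscr3, a scramblase that moves cardiolipin between the membranes, had a log2 fold change of -0.37 in wild-type cold (adjusted p = 0.0144), short of the fold limit.

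In the list of 5 remodelling genes, which holds Taz and Lclat1, Hadha and the phospholipase Pnpla8 rose with Lclat1 in wild-type cold. Hadha, the alpha subunit of the trifunctional protein of fatty acid oxidation, which is also known to reacylate monolysocardiolipin, went from 260 ± 59.1 to 1314 ± 72 CPM (log2 2.34, adjusted p = 2.45e-05). It was lower in HY/HY mice at 8°C, at 566 ± 39.6 CPM (log2 -1.21, adjusted p = 0.00385). Hadha is on the same list of the authors, so its calls are not independent of that list either. Pnpla8, which removes acyl chains, went from 84.6 ± 5.07 to 187 ± 14.1 CPM (log2 1.15, adjusted p = 0.000647) and at 8°C was at 203 ± 19.1 CPM in HY/HY mice, with no call between genotypes (log2 0.11, adjusted p = 0.741).

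All 4 inner membrane scaffold genes rose in wild-type cold (10.3% of all genes did): the prohibitins Phb (log2 1.38, adjusted p = 0.000164) and Phb2 (0.74, adjusted p = 0.00245), Dnajc19, a partner of the prohibitins (0.87, adjusted p = 0.000956), and Stoml2, which binds cardiolipin (0.82, adjusted p = 0.000222). At 8°C, where 4.41% of all genes were called lower, 3 of the 4 were called lower in HY/HY mice (Phb -0.74, Phb2 -0.67 and Dnajc19 -0.59 on the log2 scale, adjusted p = 0.0189, 0.012 and 0.0237). Stoml2 (log2 -0.53, adjusted p = 0.0113) had a fold of 0.694, short of the fold limit. The list of other uses of phosphatidic acid or CDP-diacylglycerol held 5 genes, though 1 of them, Pisd, uses neither lipid itself. Pisd, which makes phosphatidylethanolamine in mitochondria from phosphatidylserine, rose in wild-type cold (log2 0.74, adjusted p = 0.00158). Lpin2, a phosphatidic acid phosphatase, fell (log2 -0.75, adjusted p = 0.0372, but 0.131 without wild type at 30°C replicate 2). Lpin2 was also lower in HY/HY mice at 30°C (log2 -1.16, adjusted p = 0.0429), a call that was lost without wild type at 30°C replicate 2 (adjusted p = 0.127) or HY/HY at 30°C replicate 3 (0.113). In HY/HY mice no gene of these lists was called between 8°C and 30°C, but without HY/HY at 30°C replicate 3 Gpat3 (log2 1.55, adjusted p = 0.0257), Hadha (0.95, adjusted p = 0.0213) and Pnpla8 (1.01, adjusted p = 0.00389) were called higher.

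Set beside 6 nuclear genes of respiration (Cs, Ndufs8, Sdhb, Uqcrc2, Cox5a and Atp5b), the cardiolipin genes had smaller values. All 6 are also on the authors' list of direct targets, which takes genes raised by cold and reduced in HY/HY mice in these same data. Their calls are thus not independent of that list, and the 6 are no neutral reference. All 6 of those were called higher in wild-type cold, with a median log2 fold change of 1.93, where the 9 cardiolipin genes had a median of 0.33 and a highest value of 1.36. At 8°C, 5 of the 6 were called lower in HY/HY mice, with a median of -1.11 against -0.34. The interaction term was negative for Agpat3 (-1.07), Prelid3b (-1.15), Hadha (-1.55) and Phb (-1.07), with adjusted p values of 0.0299, 0.031, 0.0146 and 0.0356. Without wild type at 30°C replicate 2 the calls of Agpat3 (adjusted p = 0.0794), Prelid3b (0.0813) and Phb (0.0945) were lost, and without HY/HY at 30°C replicate 3 those of Prelid3b (0.0534) and Phb (0.0583). The call of Hadha held in both cases, in the first only narrowly (0.0488 and 0.0189). Only these 2 libraries were left out for the list genes.

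**Figure D5:**
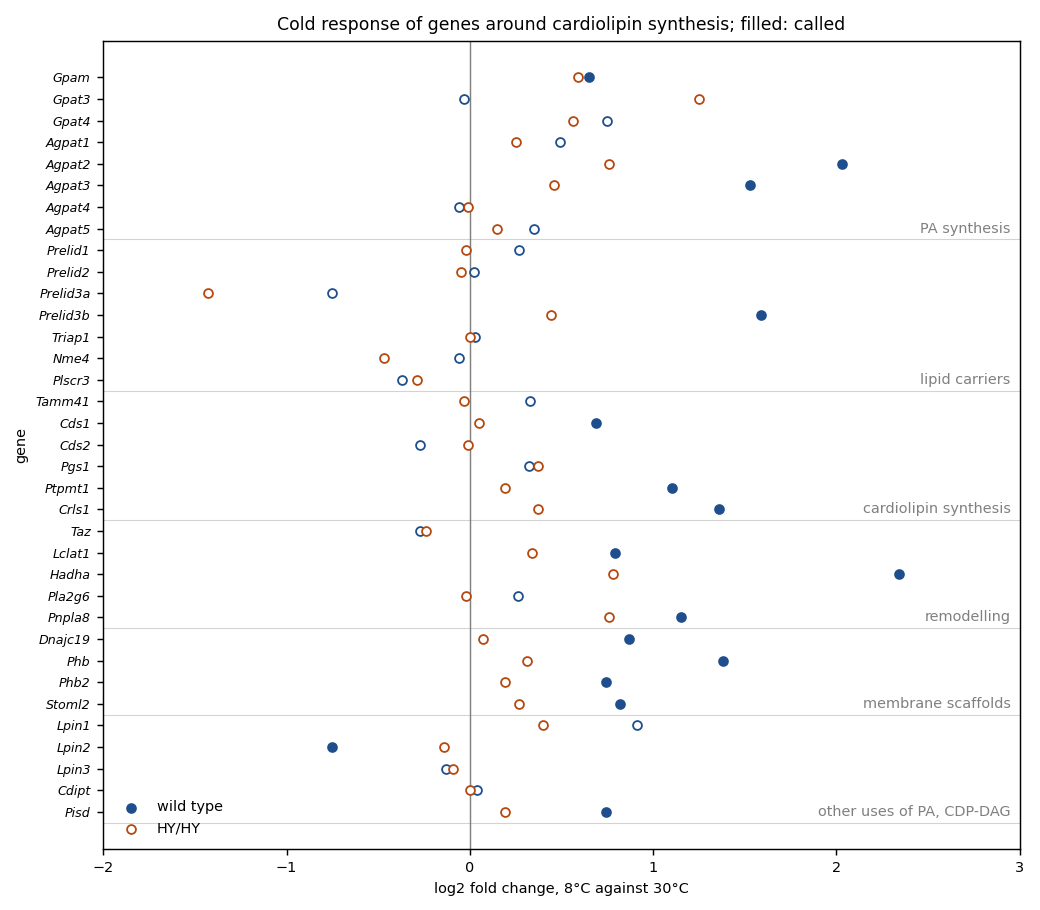
Log2 fold change of 8°C against 30°C (x axis) in wild-type (blue) and HY/HY (orange) mice for each tested gene (y axis) of the lists by role, filled where called. Hadha at 2.34 and Agpat2 at 2.03 led in wild type, and no HY/HY point is filled.

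The members' loci bear on how their counts can be read. Crls1 (ENSMUSG00000027357.16, chr2:132846650-132866786, plus strand) and Cds2 (ENSMUSG00000058793.14, chr2:132253338-132312050, plus strand) lie in the same region of chromosome 2, and Ptpmt1 (ENSMUSG00000063235.16, chr2:90910713-90918050, minus strand) elsewhere on it. Taz (ENSMUSG00000009995.17) lies at chrX:74281900-74295319, Cds1 (ENSMUSG00000029330.8) at chr5:101765093-101823858 and Lclat1 (ENSMUSG00000054469.14) at chr17:73107985-73243368, all on the plus strand. Pgs1 (ENSMUSG00000017715.11) lies at chr11:117986297-118024011 and Prelid1 (ENSMUSG00000021486.7) at chr13:55322055-55325272 on the plus strand, and Tamm41 (ENSMUSG00000030316.13) at chr6:115004381-115037929 on the minus strand. Genes on the other strand overlap Crls1, Pgs1, Taz and Lclat1, where at most 0.549% of the counts were antisense. They also overlap Ptpmt1 (Kbtbd4) and Prelid1 (Mxd3), and 21.8% and 32.1% of the counts over these 2 loci were antisense. The counts used here were those of the sense strand, and with both strands counted no direction turned for Ptpmt1 or Prelid1 in any comparison.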

How the data were processed

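Total RNA of scWAT was sequenced by the authors after TruSeq library preparation, and the authors ran fastp for trimming and STAR for alignment to the mm10 genome. The deposited files give raw counts of read pairs per gene, with a column for each strand, in the layout of STAR's gene counts, which leave out pairs that align to several places. The submitters' processing notes name FastQC and StringTie, and tool versions are not given in the sources used here. The column of the sense strand was used (95.5 to 96.2% of stranded gene counts). The 4 rows that name no gene, 55.8 to 63.5% of all read pairs, were left out.

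Gene identifiers were matched without their version to the symbols of an older annotation (32589 matched), with Tamm41 found under its older symbol, and exon lengths came from that annotation, made on an older build. Counts were scaled with TMM factors and tested with edgeR 4.0.16 (glmQLFit with robust = TRUE and glmQLFTest in R 4.3.3), with 4 group means over 12 libraries (8 residual degrees of freedom) and Benjamini-Hochberg adjustment over the 16540 genes kept by filterByExpr. The study's own single-gene tests on normalised values were replaced because the files hold counts. CPM values are counts scaled to the TMM-adjusted library size. Alternatives were DESeq2 1.42.0, library totals, other filters and limits, counts of both strands, the libraries of a comparison alone, nuclear genes alone, a replicate block and each library left out, and further ones were added after seeing the data (2 libraries left out for the gene lists, and strand and single libraries for the ratios). The scripts were tested on simulated data.

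The members and lists were chosen with earlier results of these data known. Genes named are the 9 members, at most 4 called genes per list and comparison by smallest adjusted p, the 5 genes most like Crls1 and Taz, Kdm3a and Ucp1, and further list genes and the ratio pairs were named after their values were seen. Same-numbered libraries of different groups did not deviate together in every pair (r from -0.069 to 0.346, above 0.1 in 11 of 18 pairs), and no label ties the numbers to litters or days, so the groups were compared unpaired, with the blocked fit as an alternative. Nothing in the labels says more of the replicates than that they are separate samples, so p-values measure the spread between these mice. No libraries held identical counts.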

Additional observations from a re-analysis of the deposited data

Results flagged for a closer look

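Among the cardiolipin genes and the lists of lipid and scaffold genes by role, the response to cold differed between genotypes for 5 genes in the interaction test of edgeR over all 12 libraries (2.1% of all genes tested were called lower and 0.169% higher), all with the smaller fold change in HY/HY mice. The lists of phosphatidic acid synthesis, lipid carriers, cardiolipin synthesis, remodelling and scaffolds held 1 call each among 8, 7, 6, 5 and 4 tested genes. The list of other uses held 0 among 5. The log2 difference was -0.91 for Ptpmt1 (wild-type response 1.10, HY/HY response 0.19), -1.07 for Agpat3 (1.53 and 0.46), -1.15 for Prelid3b (1.59 and 0.44), -1.55 for Hadha (2.34 and 0.78) and -1.07 for Phb (1.38 and 0.31). Only the difference of Ptpmt1 belongs to the 9 cardiolipin genes. Only that of Hadha held its call both without wild type at 30°C replicate 2, the library with muscle RNA (adjusted p = 0.0488), and without HY/HY at 30°C replicate 3 (0.0189). Hadha and Prelid3b are on the authors' list of genes raised by cold and reduced in HY/HY mice, defined partly from these same data. Their calls are thus not independent of that list. Groups of 3 mice are too small for a test of single outlying libraries.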

How the results depend on the processing

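Over 20 alternatives, Crls1 and Ptpmt1 kept their call in wild-type cold in all, and Cds1 and Lclat1 in 19. With libraries left out in turn, the number of the 9 genes called ranged from 0 to 1 in HY/HY cold, at 8°C between genotypes, at 30°C between genotypes and in the interaction. Between genotypes at 8°C, 2 were called with no fold limit and 0 at an adjusted p under 0.01. In the interaction, DESeq2 called 3, the replicate block 2 (Ptpmt1, and Crls1 at -0.97 with an adjusted p of 0.0424) and a limit of 0.01 left 0. No label ties the replicate numbers to shared litters or days, and not every pair of same-numbered libraries deviated together, though all 3 pairs between HY/HY groups did (r from 0.112 to 0.303) and 7 of 12 libraries were nearest to their own number in another group. Whether the numbers pair the mice is thus not settled, and the block moved no other count of the 9 genes by over 1.5 times. With library totals, which moved the median of all genes to -0.41 in wild-type cold, -0.15 in HY/HY cold, 0.15 at 8°C, -0.08 at 30°C and 0.25 in the interaction, small values turned: Pgs1 (0), Prelid1 (-0.07) and Tamm41 (-0.01) in wild-type cold, Cds1 (-0.08) in HY/HY cold, Pgs1 (0.09) at 8°C and Crls1 (-0.01) at 30°C. Relative to the moved median, the 3 in wild-type cold lay above it. Left-out libraries turned log2 values near 0: in HY/HY cold Cds1 (-0.01 to 0.14), Cds2 (-0.08 to 0.04), Prelid1 (-0.06 to 0.01) and Tamm41 (-0.07 to 0.02), at 8°C Pgs1 (-0.13 to 0.04), at 30°C Crls1 (-0.17 to 0.29), Pgs1 (-0.23 to 0.04) and Prelid1 (-0.09 to 0.02), and in the interaction Pgs1 (-0.09 to 0.19) and Taz (-0.03 to 0.10). The cause was not tested. The call of the interaction of Ptpmt1 held in 10 of 19 alternatives, with adjusted p from 0.000689 to 0.0871, and that of Crls1 at 8°C in 17 of 20, with adjusted p from 0.000255 to 0.0671. The ratios within a library kept their sign or stayed within the spread with both strands counted. Fewer counts in the cold groups limit the precision for Tamm41, Lclat1 and Cds1, whose cold libraries held as few as 138, 271 and 240 counts.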
